A study of Caenorhabditis elegans with 12 samples.

Results

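Early embryos of Caenorhabditis elegans were compared by whether their mothers had been fed bacteria that make double-stranded RNA. In this method, RNA interference (RNAi) by feeding, the double-stranded RNA spreads from the gut to the germline and silences the matching gene in the embryos. All 12 libraries of the series were used, 8 from RNAi and 4 without, chosen by sample title. The 8 RNAi libraries formed 4 groups of 2 in the N2 background, pos-1 RNAi, gld-3 RNAi, gld-2 RNAi and mex-5 RNAi. The 4 other libraries were 2 of wild-type N2 and 2 of the mutant mex-6(pk440), whose columns in the count tables carry the name RNAi while the titles give the allele. More than 90% of the embryos of each sample lay between the zygote and the 24-cell stage, per the labels. The labels describe Escherichia coli OP50 as the food of N2 and E. coli HT115(DE3), induced with IPTG, as the food for RNAi, and give no food of its own for mex-6(pk440). No library came from worms fed HT115(DE3) without a targeted gene, so bacterial strain, exposure to double-stranded RNA and any effect that the 4 knockdowns share cannot be told apart. Whether the 2 libraries of a group stem from separate cultures is not in the labels, and p-values therefore measured only the spread between these samples.

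Of the targeted genes, pos-1 and mex-5, like mex-6, encode proteins with CCCH zinc fingers that bind maternal mRNA. The product of gld-2 lengthens poly(A) tails in the cytoplasm, and that of gld-3 binds RNA and works with it. The comparison asks which genes moved the same way in all 4 knockdowns, whichever gene was targeted. The bacterial diet of the worm is known to set the level of metabolic genes, among them the propionate shunt, a route that breaks down propionate when vitamin B12 is short and whose first enzyme, ACDH-1, is transcribed less when vitamin B12 is plentiful. Bacteria and wounding are also known to induce antimicrobial peptide genes in the epidermis, such as nlp-29.

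PAT-seq, which sequences the 3' ends of polyadenylated RNA and measures the poly(A) tail, gave 4613974 to 10229871 gene reads per library, of which 35.4% to 56.7% were rRNA. Maternal RNA-binding protein genes, which mark early embryos, summed to 5189 to 9636 CPM (reads scaled to a common library total) and all 31 of them passed the low-count filter. Each targeted gene was lower in its own group than in the 4 non-RNAi libraries. For pos-1 the 2 knockdown libraries had 132 and 42.8 CPM against 379 to 626 without RNAi, for gld-3 8.46 and 9.27 against 104.2 to 122.8, for gld-2 5.54 and 3.31 against 8.3 to 14.2, and for mex-5 38.6 and 34.3 against 335 to 457. The mutant had 7.03 and 3.07 CPM of mex-6, N2 had 205 and 244, and mex-5 RNAi had 23.9 and 14.9. The direction of mex-6 depended on the control. The RNAi average was above the mean of N2 and the mutant (1.43 ± 0.20 on the log2 scale, SE, edgeR adjusted p = 4.9e-04) but below N2 alone (-1.27, edgeR adjusted p = 0.0015).

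The genes called in the same direction in all 4 RNAi groups numbered 65. In edgeR's quasi-likelihood test on 9403 genes, the average of the 4 RNAi groups was higher than the average of N2 and mex-6(pk440) at 1007 genes (10.7% of those tested) and lower at 1199 (12.8%), at a Benjamini-Hochberg adjusted p under 0.05. A gene was counted as moving the same way when each RNAi group on its own passed that threshold in 1 direction. This held for 51 genes that were higher (0.542%) and 14 that were lower (0.149%). With weaker demands the numbers were larger, at 173 higher and 83 lower with an unadjusted p under 0.05 in each group, and 1633 of the 2206 genes called on average had the same sign in all 4 groups. Each group was set against the same 4 control libraries, so the 4 comparisons are not independent and the count is a description. The single groups differed widely in calls. Against the same controls, gld-3 RNAi had 316 higher and 240 lower (3.36% and 2.55%), pos-1 RNAi 444 and 669 (4.72% and 7.11%), mex-5 RNAi 1880 and 1102 (20% and 11.7%) and gld-2 RNAi 1717 and 1331 (18.3% and 14.2%). Among the 4 RNAi groups 3663 genes (39%) differed. The count of 65 rested on single libraries. It was 16 without gld-3 RNAi replicate 2, 24 without mex-6(pk440) replicate 1, 27 without N2 replicate 2 and 31 without pos-1 RNAi replicate 2, and it was 111 against N2 alone and 7 against mex-6(pk440) alone. The excess of raised genes also depended on the groups used: over the 3 groups other than gld-2 RNAi, 58 genes were higher and 84 lower.

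Of the 14 genes that were lower in all 4 groups, 3 belonged to the propionate shunt. Of 15 genes of vitamin B12 and propionate metabolism, 7 were lower on average and 0 higher, with a median log2 difference of -0.78 against -0.04 over all genes tested. Those 7 were acdh-1, acdh-2, hphd-1, ech-6, hach-1, nhr-68 and pccb-1. The first 5 had no overlap between the 8 RNAi and the 4 non-RNAi libraries, which held for 217 genes (2.31%) in that direction, and acdh-1, hphd-1 and ech-6 were lower in all 4 groups. Among all genes tested, 12.8% were lower and 10.7% higher on average, and 0.149% were lower in all 4 groups. Summed over the list, the libraries overlapped, at 867 to 1010 CPM without RNAi and 516 to 1147 CPM with it, the highest in mex-5 RNAi.

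acdh-1, at I:6497455-6499466 on the plus strand of ce10, encodes the acyl-CoA dehydrogenase that opens the shunt. Its level was 57.8 and 72.5 CPM in N2, 93.6 and 56.1 in mex-6(pk440), 9.14 and 2.41 in pos-1 RNAi, 7.41 and 3.61 in gld-3 RNAi, 19.7 and 10.2 in gld-2 RNAi, and 7.98 and 3.73 in mex-5 RNAi. Every RNAi library was thus below every library of N2 and of the mutant, which differed little from each other (0.21 ± 0.50 on the log2 scale, SE, edgeR adjusted p = 0.95). The average RNAi difference was -3.22 ± 0.31 (edgeR adjusted p = 1.3e-04), and the 4 groups ranged from -2.19 in gld-2 RNAi to -3.63 in gld-3 RNAi. It was -2.82 among the libraries numbered 1 and -3.80 among those numbered 2. Its call in all 4 groups held in 10 of the 12 fits that left out 1 library each.

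hphd-1, the hydroxyacid-oxoacid transhydrogenase of the shunt (II:12994398-12996123, minus strand), had 14.5 and 22.6 CPM in N2 and 25.4 and 19 in the mutant, against 3.62 to 12.3 with a median of 6.6 in the RNAi libraries. The ranges did not overlap, and the difference was -1.50 ± 0.21 (edgeR adjusted p = 4.5e-04). ech-6, an enoyl-CoA hydratase of the same route (III:9751608-9752790, minus strand), had 160 and 202 CPM in N2 and 228 and 140 in the mutant, against 49.6 to 127 with a median of 75 in the RNAi libraries. These did not overlap either, with a difference of -1.26 ± 0.18 (edgeR adjusted p = 5.7e-04). The largest falls, with acdh-1, hphd-1 and ech-6 among them, were picked from genes without overlap, so lack of overlap is no separate support. hphd-1 kept its call in all 4 groups in 5 of the 12 fits without 1 library, and ech-6 in 6.

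Further members followed with less support. hach-1, a hydrolase of the shunt, had 22.5 to 31.2 CPM without RNAi and 8.07 to 20.1 with it (-0.83 ± 0.18, edgeR adjusted p = 0.0061). nhr-68, a nuclear receptor that turns the shunt on, differed by -1.02 ± 0.20 (edgeR adjusted p = 0.0037), with mex-5 RNAi alone at -0.38 (adjusted p = 0.36). The genes of the vitamin B12-dependent route did not move together. pccb-1, a propionyl-CoA carboxylase subunit, was lower (-0.78 ± 0.25, edgeR adjusted p = 0.043), whereas its partner pcca-1 (-0.15 ± 0.26, adjusted p = 0.73) and the mutase mmcm-1 (0.01 ± 0.14, adjusted p = 0.97) did not pass. hach-1, nhr-68, pccb-1, pcca-1, mmcm-1 and acdh-2 were named after their values were seen.

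**Figure D1:**
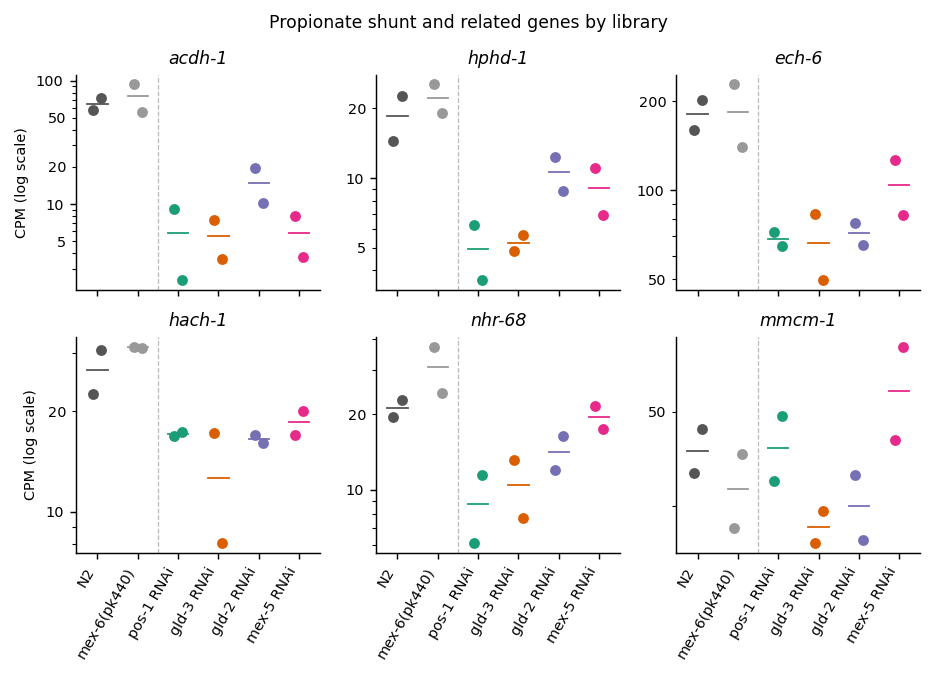
CPM (log scale) of 6 genes of propionate metabolism in each of the 12 libraries, with points for libraries, bars for group means and the dashed line between the non-RNAi and the RNAi groups. acdh-1 lay at 56.1 to 93.6 CPM left of the line and at 2.41 to 19.7 CPM right of it, and hphd-1, ech-6 and hach-1 also did not overlap, while nhr-68 and mmcm-1 overlapped.

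Levels of adult gut genes differed between the groups as well. Genes of yolk and adult intestine, where acdh-1 is known to be expressed, were tested at 14 of 15 members, with 1 higher and 2 lower on average, and none of the 15 was at 0 in every library. Over all genes tested, 10.7% were higher and 12.8% lower. Their summed level was 521 and 866 CPM in N2, 288 and 207 in mex-6(pk440), 969 and 1030 in gld-2 RNAi and 52.8 to 470 in the other RNAi libraries. The mutant, with 93.6 and 56.1 CPM of acdh-1, had a lower sum than N2. gld-2 RNAi had the highest sum, and among the RNAi groups also the highest acdh-1 level and the smallest fall (-2.19). The part of these tissues in the acdh-1 result was not tested. Because the samples were bulk embryos, fewer cells of a type and less RNA per cell cannot be told apart.

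The feature listed as the insulin-like gene ins-13 (II:5544568-5544834, minus strand) had the largest fall by the naming rule. It had 12.7 and 7.58 CPM in N2, 17.2 and 18.6 in the mutant, and 0.695 to 2.68 with a median of 1.4 in the RNAi libraries (-3.26 ± 0.21, edgeR adjusted p = 9.7e-07). The groups were far apart, and the call in all 4 groups held in all 12 fits without 1 library. The propionate gene acdh-2 (II:5545015-5547472, minus strand) ends 180 bases upstream of ins-13 on the same strand. The authors' peak list ties 1 poly(A) peak to both genes, at II:5544765-5544865, over the 5' end of ins-13 and downstream of acdh-2. It ties no other peak to ins-13, so none lies at the 3' end of that gene. acdh-2 itself had 2.16 to 4.53 CPM without RNAi and 0 to 1.55 with it, listed at 0 in 4 of the 8 RNAi libraries. Reads of the 2 genes could thus not be told apart, and values under ins-13, here and below, may be those of acdh-2. Their share was not tested.

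Other genes lower in all 4 groups had different roles. C09B8.4, a gene of unnamed product on X (X:6018446-6019898, minus strand) and named after its values were seen, had 11.7 and 12.4 CPM in N2, 17.4 and 18 in the mutant and 0.883 to 3.01 in the RNAi libraries. Its difference was -2.77 ± 0.22 (edgeR adjusted p = 8e-06), nearly equal in the 4 groups (-2.62 to -3.07), and held in all 12 fits without 1 library. fog-3, which directs germ cells to become sperm, had 12.2 to 18.7 CPM without RNAi and 0.517 to 5.83 with it (-2.54 ± 0.29, edgeR adjusted p = 1.6e-04). The authors' peak for fog-3 lay downstream of its annotated end. Sperm genes as a list were lower on average in 30 of 40, against 12.8% of all genes tested. In all 4 groups, 0 of the 40 were lower, against 0.149% of all genes. Their median was 0.43 in gld-2 RNAi and -1.44 to -2.98 in the other 3 groups. Their summed level was 374 and 419 CPM in gld-2 RNAi, 176 to 414 without RNAi and 37.5 to 141 in the rest. 1 of the 58 listed sperm genes had no read in any library. The part of sperm RNA in the fog-3 result was not tested.

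Among the rest, the neuropeptide gene nlp-11 fell from 7.37 to 13.5 CPM without RNAi to 2.55 to 5.74 with it (-1.58 ± 0.20, edgeR adjusted p = 3e-04). npp-11, a nuclear pore gene, fell from 42.6 to 53.9 CPM to 12.1 to 29.1 CPM (-1.20 ± 0.16, edgeR adjusted p = 3.6e-04), most in gld-2 RNAi at -1.95. The call in all 4 groups held in 8 of the 12 fits without 1 library for fog-3, 6 for nlp-11 and 2 for npp-11. The 14 lowered genes had a median of -1.38. Their level in mex-6(pk440) was above N2 in 7 of 14, with a median mutant difference of -0.04.

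The 51 genes that were higher in all 4 groups had a median log2 difference of 1.33 and ranged from 0.82 to 3.46. In 47 of them the 8 RNAi libraries did not overlap the 4 others, which held for 182 genes (1.94%) over all genes in that direction. The 51 were chosen on these same libraries, so their lack of overlap is no separate support. The largest rise was that of T09F5.20, a gene with only a sequence name and named after its values were seen (V:15146387-15146844, minus strand). It had 0.502 and 0.361 CPM in N2, 1.19 and 1.64 in the mutant, 2.2 to 11 in pos-1, gld-3 and gld-2 RNAi and 42.7 and 52.7 in mex-5 RNAi (3.46 ± 0.27, edgeR adjusted p = 5e-06). The control levels rested on few reads, 2 in the lowest library. The rise was largest in mex-5 RNAi for 22 of the 51, and for 22 the 4 RNAi groups differed from each other in size. 12 of the 51 (23.5%) lay on the X chromosome, against 15.3% of genes tested.

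nlp-33 and nlp-29, antimicrobial peptide genes of the epidermis, were among the largest rises. nlp-33 (V:11147339-11147611, plus strand) had 19.9 and 20.7 CPM in N2, 39.9 and 39.9 in mex-6(pk440), 56.1 and 59 in pos-1 RNAi, 64.1 and 60.6 in gld-3 RNAi, 108 and 138 in gld-2 RNAi and 793 and 714 in mex-5 RNAi. Each RNAi library was above each control library, but the step from the mutant to pos-1 RNAi was small beside that to mex-5 RNAi. The average difference was 2.25 ± 0.14 (edgeR adjusted p = 9.7e-07) and the 4 groups ranged from 1.01 to 4.73. nlp-29 had 3.52 and 3.97 CPM in N2, 8.7 and 9 in the mutant and 8.59 to 308 with RNAi (2.91 ± 0.19, edgeR adjusted p = 9.7e-07). gld-3 RNAi replicate 2, at 8.59, overlapped the mutant. Of 22 bacterial response genes tested, a list that did not hold nlp-33, only nlp-29 was higher in all 4 groups, against 0.542% of all genes tested. 2 were higher on average, the other being cnc-4, a caenacin peptide gene (1.71 ± 0.24, edgeR adjusted p = 5.7e-04, 4.22 in mex-5 RNAi), and 3 were lower. These counts on average lay near the shares of all genes tested, 10.7% higher and 12.8% lower, for a list without nlp-33.

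Genes of membranes, matrix and the cytoskeleton were also in this set. clec-180, a C-type lectin gene, had 1.91 and 2.35 CPM in N2, 4.65 and 3.89 in the mutant and 7.14 to 51.9 with a median of 19.8 in the RNAi libraries (2.62 ± 0.19, edgeR adjusted p = 2.3e-06). acn-1, an angiotensin-converting enzyme relative needed for moulting, had 18.1 to 25.6 CPM without RNAi and 35.8 to 120 with it (1.64 ± 0.18, edgeR adjusted p = 1.1e-04). The Patched-related gene ptr-4 had 3.43 to 7.16 and 10.8 to 28 CPM (1.68 ± 0.17, adjusted p = 7.7e-05). All 3 had no overlap and were highest in mex-5 RNAi. Also higher in all 4 groups and without overlap were the sodium/proton exchanger gene nhx-3, the AEX-3 binding protein gene cab-1, and mtcl-1, golg-4, tag-273 and lact-5, with average differences of 1.49 to 2.67. nhx-3 rested on few reads, with 0 to 1 CPM in the controls, and kept its call in all 4 groups in 2 of the 12 fits without 1 library.

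Genes of this set named after their values were seen included lam-3, a laminin alpha chain, with 63.1 and 65.8 CPM in N2, 161.3 and 103.7 in the mutant and 205 to 326 in the RNAi libraries (1.41 ± 0.16, edgeR adjusted p = 1.3e-04). It was 1 of 4 raised genes whose call in all 4 groups held in every fit without 1 library, with clec-180, nlp-33 and F10G8.8. dpy-14, a cuticle collagen gene, had 852 and 687 CPM in N2, 1214 and 1389 in the mutant and 1555 to 5011 with RNAi (1.20 ± 0.12, edgeR adjusted p = 6.4e-05). sma-1, a spectrin of the apical membrane, had 138 to 290 CPM without RNAi and 302 to 624 with it. ajm-1, an apical junction gene, mua-3, which attaches the epidermis to the cuticle, lrp-1 and mlt-11, which act in moulting, and anc-1, which anchors nuclei, rose by 0.87 to 1.40 on the log2 scale. F44E5.5 and F44E5.4, a near-identical inverted pair of HSP70 genes, were counted in 2 merged features, both of which rose (1.47 ± 0.16 and 1.33 ± 0.17). These 2 copies could not be told apart.

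**Figure D2:**
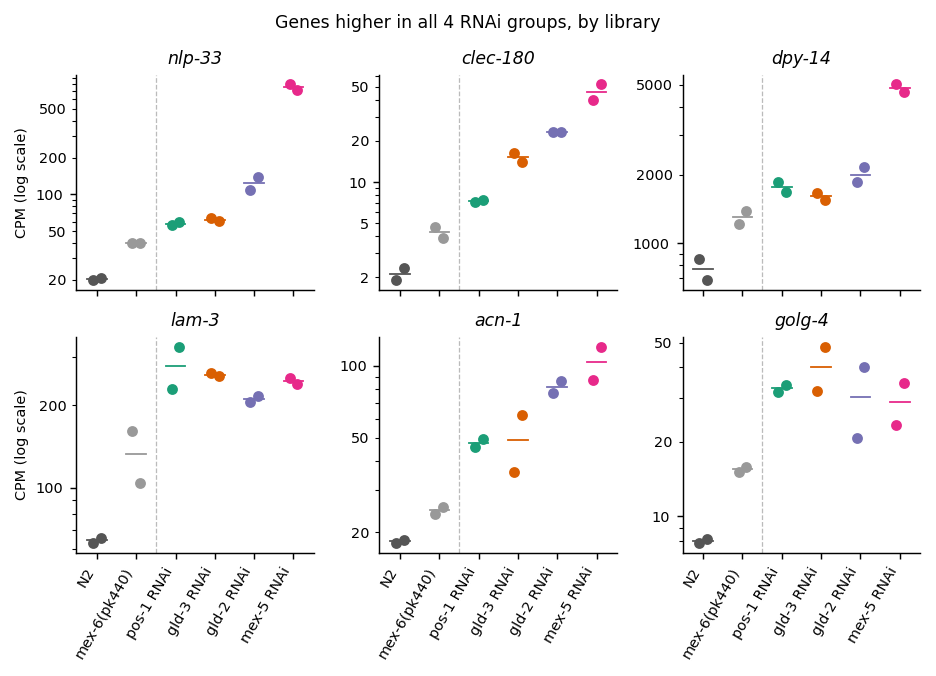
CPM (log scale) of 6 genes that were higher in all 4 RNAi groups, with points for libraries, bars for group means and the dashed line between the non-RNAi and the RNAi groups. For nlp-33, clec-180, dpy-14, lam-3, acn-1 and golg-4 both mex-6(pk440) libraries lay above both N2 libraries and below all RNAi libraries.

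The 2 controls were not alike for the raised genes. In 47 of the 51 the mutant was higher than N2, and in 43 both mutant libraries were above both N2 libraries, against 49.1% and 20.3% of all genes tested. The median difference between mutant and N2 was 0.62 over the 51 and -0.01 over all genes. None of the 51 passed the test of the mutant against N2, in which edgeR called 7 of all genes (0.0744%), with 850 at an unadjusted p under 0.05 and 74 calls by DESeq2. Against mex-6(pk440) alone, 2 genes were higher in all 4 groups, mex-6 itself and 1 F44E5.5 feature, and 5 were lower, acdh-1, ins-13, C09B8.4, fog-3 and hphd-1. The genes that passed both against N2 alone and against the mutant alone were 1 F44E5.5 feature, higher, and acdh-1, C09B8.4 and ins-13, lower.

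**Figure D3:**
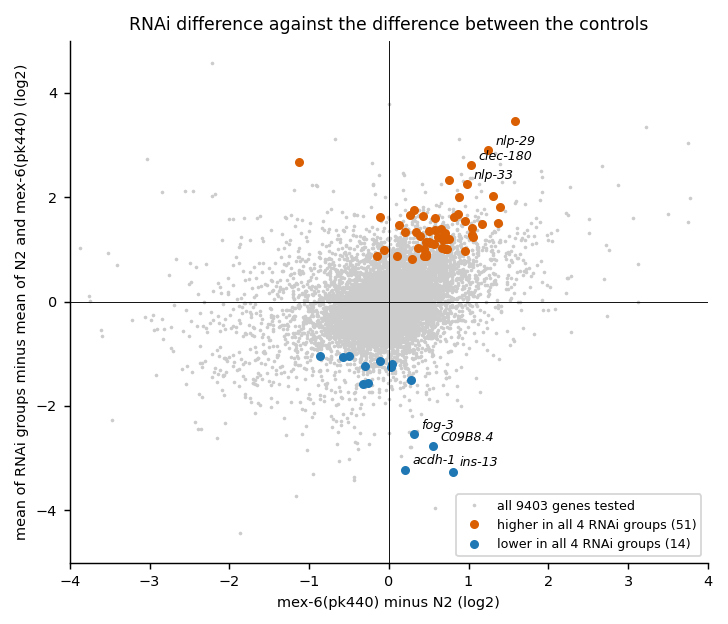
Average log2 difference of the RNAi groups from both controls (vertical) against the log2 difference of mex-6(pk440) from N2 (horizontal), 1 point per gene, with 14 genes outside the plotted range. Most of the 51 genes higher in all 4 RNAi groups lie right of 0, while acdh-1, ins-13, C09B8.4 and fog-3 lie lowest and near or right of 0.

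Lists of tissue genes moved differently between the RNAi groups. Muscle genes were higher on average in 10 of 21, as for the myosin gene myo-3 (0.96 ± 0.13, edgeR adjusted p = 4.4e-04), but the list median was -0.82 in pos-1 RNAi and 1.78 in mex-5 RNAi. Their summed level was 908 to 1090 CPM without RNAi, 1038 to 1148 CPM in pos-1 and gld-3 RNAi and 2045 to 3065 CPM in gld-2 and mex-5 RNAi, so it moved with the sizes of nlp-33 and ptr-4. Its part in those results was not tested. Of 89 cuticle and epidermis genes, 14 were higher and 37 lower. Of these, 8 had all RNAi libraries above all others, among them the collagen gene sqt-3 (305, 298, 371 and 390 CPM without RNAi, 436 to 1389 with it, 0.98 ± 0.11, edgeR adjusted p = 1.6e-04). The other 7, named after their values were seen, were dpy-2, dpy-3, dpy-7, col-174, ajm-1, dlg-1 and the epidermal transcription factor gene elt-3. The collagen gene col-159 fell by 2.54 on average but did not pass in gld-2 RNAi (-0.14, edgeR adjusted p = 0.79). 3 of 151 listed cuticle genes had no read in any library, and the list sum was 2160 to 4061 CPM without RNAi and 1960 to 5752 with it. Of 14 neuron genes, 3 were higher and 2 lower, and of 5 somatic gonad genes 2 and 1. Among all genes tested, 10.7% were higher, 12.8% lower, and 1.94% had all RNAi libraries above all others. In all 4 groups, 1 of the 89 listed cuticle and epidermis genes was higher, the junction gene ajm-1, and 0 of the muscle, neuron and somatic gonad genes. The cuticle list did not hold the collagen gene dpy-14, which was higher in all 4 groups.

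Maternal and early embryonic genes were mostly lower or did not pass. Of 31 maternal RNA-binding protein genes, mex-5 among them, 19 were lower and 2 higher (median -0.52), and of 24 oocyte and eggshell genes 14 were lower and 1 higher. The shares of all genes were 12.8% lower and 10.7% higher. In all 4 groups, 0 genes of either list were called. The maternal median was -0.90 in gld-2 RNAi and -0.33 to -0.15 in the other groups. For oocyte genes it was -1.65 in gld-2 RNAi, -0.36 in pos-1 and gld-3 RNAi and 0.04 in mex-5 RNAi. The Pumilio-family gene puf-3 differed by -2.43 in gld-2 RNAi and by 0.03 in mex-5 RNAi. Of 22 of the first zygotic genes 9 were lower and 0 higher, as for the mesoderm factor gene ceh-51 (-0.94 ± 0.12, edgeR adjusted p = 3.2e-04), which differed by 0.22 in gld-3 RNAi.

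Of 35 RNAi pathway genes 5 were lower and 2 higher, and 0 were called in all 4 groups, against 12.8% lower and 10.7% higher, and 0.149% lower and 0.542% higher in all 4 groups, among all genes tested. The Argonaute genes hrde-1 (-1.10 ± 0.22, edgeR adjusted p = 0.0043) and wago-1 (-0.98 ± 0.17, edgeR adjusted p = 0.0018) were lower on average but fell by 1.99 and 2.14 in gld-2 RNAi and did not pass in pos-1 RNAi or gld-3 RNAi. Their RNAi and control libraries overlapped.

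In the remaining lists the counts are to be read against those same shares of all genes, 10.7% higher and 12.8% lower. On average 6 of 31 proteasome genes were lower and 0 higher, as for pas-5 (-0.83 ± 0.14, edgeR adjusted p = 0.0015), and 8 of 33 respiratory chain genes were lower and 0 higher, as for the ATP synthase gene atp-3 (-0.56 ± 0.13, edgeR adjusted p = 0.0080). The respiratory chain sum, 10060 to 12930 CPM without RNAi, was 8627 to 9888 CPM with it and did not overlap. Of 67 ribosomal protein genes 7 were higher and 0 lower, with a median of 0.90 in mex-5 RNAi and -0.10 in pos-1 RNAi. Of 19 fatty acid genes 2 were higher and 4 lower, with the acetyl-CoA carboxylase gene pod-2 higher in every RNAi library (0.82 ± 0.13, edgeR adjusted p = 0.0010). The higher and lower counts were 1 and 4 of 12 methionine cycle genes, 1 and 5 of 19 poly(A) machinery genes, 3 and 3 of 32 histone genes, 1 and 3 of 19 stress genes and 1 and 1 of 8 detoxification genes, several of them near the shares of all genes. Of the 5 targeted genes 1 was higher and 3 were lower. These counts are no separate result, because each knockdown enters the average and the mex-6 mutant enters the control. The poly(A) machinery list also holds the targeted gene gld-3, at -3.65 in its own group.

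**Figure D4:**
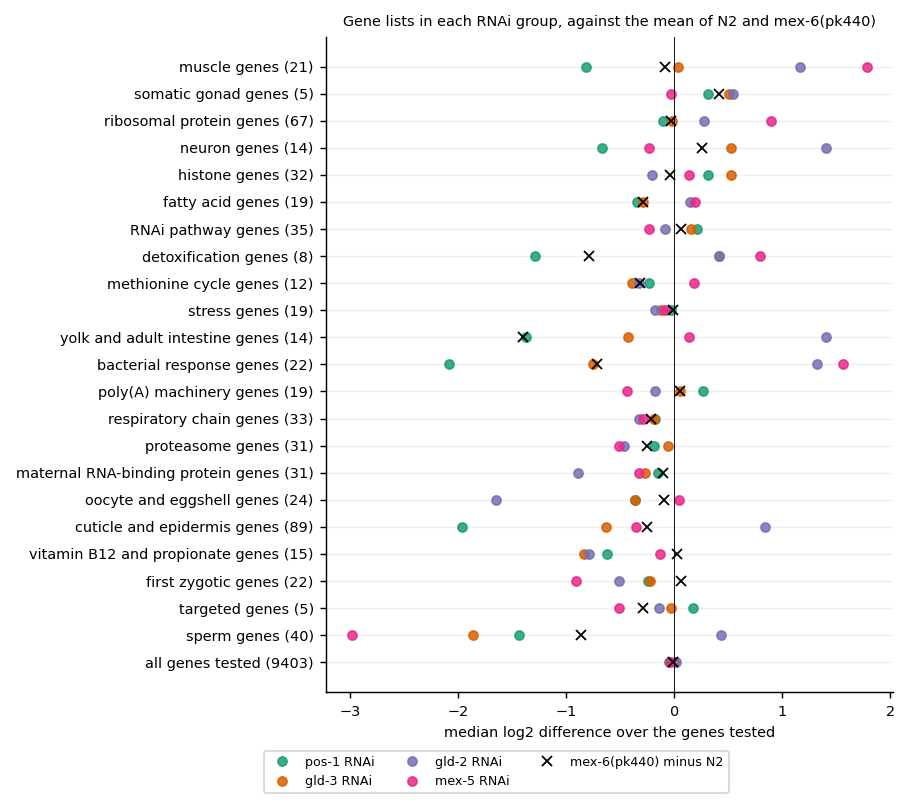
Median log2 difference of each gene list in each RNAi group from the mean of both controls (coloured points) and of mex-6(pk440) from N2 (crosses), with the number of genes tested in brackets. For muscle, cuticle, bacterial response and yolk genes the 4 groups lie on both sides of 0. For vitamin B12 and propionate genes all 4 medians lie below 0, from -0.83 to -0.13. The same holds for first zygotic, maternal RNA-binding protein, proteasome, respiratory chain and stress genes.

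Median poly(A) tails were longer in the RNAi libraries on average but not in each library, and 0 genes passed in all 4 groups. The median over 5471 genes of the mean tail was 44.2 and 40.4 nt in N2 and 42.3 and 42.3 nt in mex-6(pk440). With RNAi it was 45.2 and 45.6 nt in pos-1, 42.7 and 46.9 nt in gld-3, 45.8 and 46 nt in gld-2 and 42.8 and 46.2 nt in mex-5. The libraries numbered 1 of gld-3 and mex-5 RNAi thus lay below N2 replicate 1. The RNAi libraries averaged 45.1 ± 1.57 nt (SD, n = 8) and the others 42.3 ± 1.55 nt (SD, n = 4), a difference of 2.86 nt (two-sided exact permutation test, p = 0.0162), with overlap. Libraries of 1 group are not independent of each other, and over the 6 group means the p was 0.0667, the smallest that 4 against 2 allow. Without N2 replicate 2 the difference was 2.22 nt (exact permutation p = 0.0606).

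By gene, limma called 46 tails longer (0.841%) and 1 shorter (0.0183%) on average, with 1324 at an unadjusted p under 0.05. All of these calls were lost with a replicate block and against either control alone, with 0 tails called. The count was 0 in 9 of the 12 fits without 1 library, and 363, 422 and 313 without N2 replicate 1, gld-3 RNAi replicate 1 and mex-5 RNAi replicate 1. In all 4 groups, 68 genes were longer and 8 shorter at an unadjusted p under 0.05. tbc-3, a Rab GTPase-activating protein gene, had mean tails of 45.2 and 39.2 nt in N2, 38.8 and 46.2 nt in the mutant and 51.4 to 62.7 nt with a median of 57.5 nt in the RNAi libraries (15.3 ± 2.37 nt, limma adjusted p = 0.044). coq-2, of ubiquinone synthesis, had 36 to 44.3 nt without RNAi and 53.2 to 64.3 nt with it (17.9 ± 2.83 nt, limma adjusted p = 0.044). The RNAi and the other libraries did not overlap for either gene. This held for 154 longer (2.81%) and 14 shorter (0.256%) tails of all tested, among them those of the chaperonin gene cct-2 (8.71 ± 1.47 nt) and the mitochondrial ribosomal protein gene mrpl-55 (15.1 ± 2.56 nt), both at a limma adjusted p of 0.044. tbc-3, coq-2, cct-2 and mrpl-55 were chosen among genes without overlap, so it is no separate support. lam-3 and mua-3, higher in all 4 groups, were also among the 46, with tails longer by 8.17 and 13.4 nt.

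Ribosomal protein genes went against this shift. Of 67 with tails, 61 were shorter in the RNAi groups on average, against 23.7% of all genes, and all 67 once each library was centred on its median, against 54.1%. Their median difference was -2.73 nt, against 2.47 nt over all genes. limma called 0 of them shorter on the nt scale and 21 after centring, when 2.27% of all genes were called shorter. The median tail of these genes was 37 and 37.4 nt in N2, 37.5 and 32.6 nt in mex-6(pk440) and 30.5 to 35.6 nt in the 8 RNAi libraries, so mex-6(pk440) replicate 2 lay within the RNAi range. rpl-32 had 22.1, 26.5, 22.6 and 20.2 nt without RNAi and 15 to 19.9 nt with it (-4.77 ± 1.08 nt, limma adjusted p = 0.063, 0.040 after centring). rpl-21, the troponin gene tni-1 and rbm-3.1 also had no overlap, with differences of -4.62, -8.16 and -2.70 nt at limma adjusted p of 0.071, 0.057 and 0.088, and each passed after centring. Centring took the library median difference of 2.86 nt off every gene. Calls after centring are thus relative to that shift and no separate support for shorter tails. Lack of overlap was a condition for naming these genes and rpl-32.

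**Figure D5:**
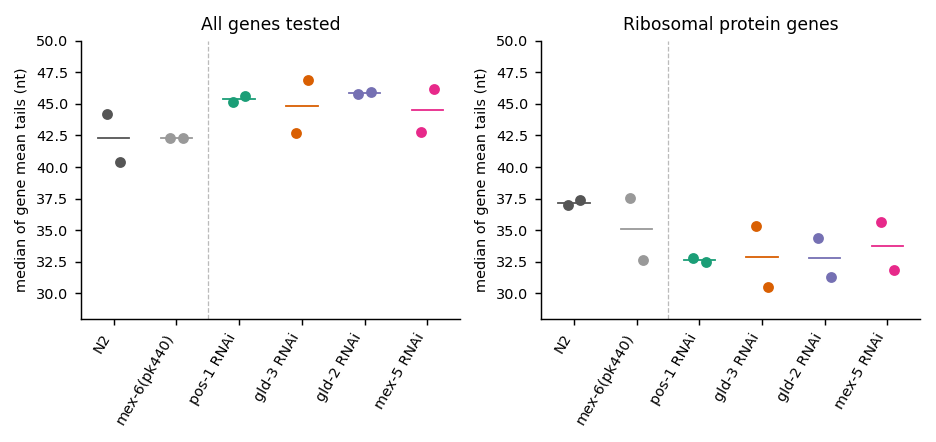
Median of the mean tails in nt over all 5471 genes tested (left) and over 67 ribosomal protein genes (right) in each library, with points for libraries, bars for group means and a vertical axis that starts at 28 nt. The RNAi libraries lie at 42.7 to 46.9 nt on the left and 30.5 to 35.6 nt on the right, the non-RNAi libraries at 40.4 to 44.2 nt and 32.6 to 37.5 nt.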

How the data were processed

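The authors deposited read counts per gene, as whole numbers without normalization, and a score per gene, the mean poly(A) tail in nt. The deposited positions of genes and poly(A) peaks, in bp (other values), are on ce10. Alignment used Bowtie2 2.2.2, per the submitters' processing notes, and peaks came from nesoni, per the file headers; the sources used here do not state how counts and tails were computed. No deposited tail stands where a gene has under 10 reads. Symbols were matched to RefSeq for 98.6% of 43347 names, and 349 features that merge coding genes (6.06% to 9.39% of reads) stayed in the fits.

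Counts were tested in R 4.3.3 with edgeR 4.0.16 (quasi-likelihood, filterByExpr, TMM, 1 coefficient per group, all 12 libraries, no replicate block). Tails in nt of 5471 genes with at least 10 reads in each library were fitted in limma 3.58.1 (eBayes, trend over log2 reads). Tests were two-sided and p-values Benjamini-Hochberg adjusted over all genes tested, at 0.05. Fold changes are fitted log2 differences with their SE, and CPM use TMM factors. Within groups, chi-square over degrees of freedom was 9.43 to 25.9, above counting error. The labels name no molecular identifiers, so a read need not be its own molecule. The main edgeR and limma fits were tested on simulated data, and the other computations were not. Alternatives included DESeq2 1.42.0, RLE factors, each control alone, a fit with 2 coefficients, a replicate block, and each library or RNAi group left out.

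Named genes were the targeted genes, up to 10 per direction with the largest change among genes that moved the same way in all 4 groups without overlap of libraries, and up to 2 per list. Features that merge coding genes, and genes with only a sequence name, were passed over there. For tails they were the 4 with the smallest p per direction among genes without overlap. The groups, the 22 gene lists and the rules were chosen with earlier results of these data known.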

Additional observations from a re-analysis of the deposited data

Results flagged for a closer look

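Among the features named as moving the same way in all 4 RNAi groups, 17 differed in size between those groups (edgeR test of the 4 RNAi coefficients, adjusted over all genes). For the epidermal peptide genes the adjusted p was 9.5e-08 for nlp-33 and 3.2e-07 for nlp-29, both highest in mex-5 RNAi. It was 1.5e-06 for T09F5.20, 2.5e-05 for clec-180, 3.6e-05 for dpy-14, 4e-04 for cab-1, 0.0032 for ptr-4, 0.0037 for mtcl-1, 0.0052 for nhx-3, 0.0063 for acn-1 and 0.015 for tag-273, each also highest in mex-5 RNAi. It was 0.02 for mlt-11, highest in pos-1 RNAi, and 0.0025 and 0.013 for the 2 F44E5.5 features, highest in gld-3 RNAi. Among the lowered genes it was 0.021 for npp-11, lowest in gld-2 RNAi, and 0.048 for fog-3 and 0.05 for hphd-1, which were higher in gld-2 RNAi than after pos-1 or gld-3 knockdown. A test of this kind was not past 0.05 for acdh-1 (0.11), which does not show that its 4 groups were alike.

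A library stood apart within its class for 2 genes and 1 tail. fog-3 had 18.7 CPM in mex-6(pk440) replicate 1, above the 3 other non-RNAi libraries. hach-1 had 22.5 CPM in N2 replicate 1 and 8.07 CPM in gld-3 RNAi replicate 2, each the lowest of its class, and rpl-32 had a mean tail of 15 nt in gld-3 RNAi replicate 2, below the 7 other RNAi libraries. Chance alone gives such a flag in about 1 of 20 groups.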

How the results depend on the processing

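Among the named genes 3 changed direction in an alternative. mex-6 differed by -1.27 against N2 alone (0.09 in the fit with 2 coefficients, where it was not called). mmcm-1 and pcca-1, which were not called, lay near 0: mmcm-1 was at -0.057 against N2 alone, -0.013 without pos-1 RNAi, -0.078 without mex-5 RNAi and -0.059 to 0.086 without single libraries, and pcca-1 at 0.10 against mex-6(pk440) alone, 0.062 without gld-2 RNAi and -0.39 to 0.021 without single libraries. The number of genes that moved the same way in all 4 groups, 65, was 116 without the low-count filter, 111 against N2 alone, 7 against mex-6(pk440) alone and 4 in both. It was 116, 142, 153 and 171 leaving out mex-5, gld-2, gld-3 and pos-1 RNAi in turn, which asks for 3 calls instead of 4 (58 higher and 84 lower without gld-2 RNAi), and 16 to 81 without single libraries. The average called 2206 genes, 401 against mex-6(pk440) alone, 66 in the fit with 2 coefficients, where differences among RNAi groups count as error and 34 of the 51 raised and 11 of the 14 lowered genes were called, and 988 to 2484 without single libraries (988 without mex-6(pk440) replicate 1, 1162 without N2 replicate 2). The mutant against N2 gave 7 calls, 74 by DESeq2, 116 without the filter and 1 to 63 without single libraries.

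Tails called on average, 47, were 108 on log2 tails (90 longer, 18 shorter), 172 after centring on library medians (48 longer, 124 shorter), 31 with weights by reads, 18 with 2 coefficients, 0 against either control alone, 116 without pos-1 RNAi, 0 without gld-2 RNAi and 0 to 422 without single libraries. On log2 tails 1 gene differed between mutant and N2. The library median difference, 2.86 nt, was 2.22 to 3.49 nt without single libraries and 2.86 nt over group means. The causes of these shifts were not tested.

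Same-numbered libraries did not deviate together in every pair of groups. Correlations were -0.15 to 0.46 for expression (median 0.20, over 0.1 in 9 of 15 pairs) and -0.15 to 0.25 for tails (over 0.1 in 5 of 15), and the labels do not tie the numbers to a shared batch, so the numbers were not taken to pair the samples, though a shared source of variation was not tested. With a replicate block, 117 genes moved the same way, 43 differed between mutant and N2, 2738 were called on average and 0 tails were called.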
